A study of Schizosaccharomyces pombe with 16 samples.

Results

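The genes described here are the ribosome biogenesis factor genes of the fission yeast *Schizosaccharomyces pombe*, followed across all media and genotypes of an RNA-seq study of carbon catabolite repression. They are the protein-coding genes whose name is utp, nop, nog, nsa, rrp or rix followed directly by a digit. There are 58 of them among 5172 protein-coding genes, and all 58 passed the filter on low counts. The names came from the RefSeq gene table, because the study's own tables were held in a form sorted by fold change and then shortened. Of the 58 names, 17 could be read there and 41 could not.

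Wild type cells (h-) were grown for 4 h at 32 °C in rich YES medium with 3% glucose, washed, and moved for another 4 h to one of 4 media. These were YES with 3% glycerol and no glucose (glucose-starved), YES with 3% glycerol and 0.1% glucose (glucose-deficient), YES with 3% sucrose, and YES with 3% glucose. For cells without Scr1, a zinc-finger repressor of glucose-repressed genes, the libraries used here came from glucose and sucrose only. One *scr1*- strain carried *scr1*::*ura4*+ together with ura4-d18, leu1-32 and ade6-m216, which the wild type labels do not list, and the others were *scr1*::kanMX6+ deletions (*scr1*Δ) from 2 isolates, 1 for each replicate. Every genotype and medium had 2 libraries made from ribosomal RNA-depleted total RNA, 16 in all, and the 4 *scr1*- libraries of a medium were treated as 1 group. Total counts were between 14305848 and 18607823 per library.

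Libraries were made in 3 batches. Batch A (first replicates of glucose, sucrose and glucose-deficient wild type cells and of *scr1*::*ura4*+) was not strand-specific, whereas batches B and C were, so that counts in batch A also hold reads from genes on the opposite strand. Counts on the *scr1* feature itself were 88.8 to 125 CPM in the libraries labelled *scr1*-, against 20.8 to 35.7 CPM in wild type in glucose or sucrose. Because that feature, 3520 bases long, includes sequence outside the coding region, it does not check the labels. Counts on *inv1*, which encodes invertase, were 1830 to 3020 CPM in the libraries labelled *scr1*- in glucose, against 4.3 to 26.2 CPM in wild type. *fbp1*, which encodes the gluconeogenic fructose-1,6-bisphosphatase, had 1410 to 1800 CPM in glucose-starved and 44.3 to 237 CPM in glucose-deficient cells, against 4.13 to 12.4 CPM in glucose. CPM here are read counts scaled to a common library size with TMM factors.

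Ribosomes are built in the nucleolus, where a long precursor RNA is transcribed, chemically modified, cut and trimmed while ribosomal proteins join it. The small subunit precursor forms first within a large particle, the SSU processome, whose U3-associated proteins (Utp) assemble from the UtpA, UtpB and UtpC subcomplexes. Box C/D and box H/ACA particles carry the snoRNAs that guide methylation and pseudouridylation, GTPases and AAA ATPases drive maturation and export of the large subunit, and the RNA exosome trims precursor RNA from its 3′ end. In yeasts, building ribosomes takes up a large part of the transcription of growing cells. The roles named below were mostly worked out in the budding yeast *Saccharomyces cerevisiae*.

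By role, the 58 genes held 28 of the SSU processome (6 UtpA, 4 UtpB, 3 UtpC and 15 others), 2 box C/D proteins, 1 box H/ACA protein, 17 large-subunit assembly factors and 8 exosome subunits. The other 2, *rrp1* and *rrp2*, have another role than the common name says. RefSeq lists their products as an ATP-dependent DNA helicase and as a DNA translocase with SUMO-targeted ubiquitin ligase activity. The exosome also acts on many other RNAs. Leaving out these last 2 classes gives 48 genes.

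The members were spread over the genome, with 24 on chromosome I, 25 on II and 9 on III. *rrp2* and *utp10* overlap each other by 19 bases on opposite strands. An unspliced transcript was listed for 27 members (46.6%), against 51.2% of all protein-coding genes. Stretches upstream of some gene starts are shown for comparison with ribosomal protein genes, the other large group of genes needed to make ribosomes. In *S. pombe*, promoters of ribosomal protein genes are known for a HomolD box (CAGTCACA), and many also hold a HomolE box, which begins with ACCCTACC. Each stretch below is the 150 bases before the RefSeq gene start (ASM294v3), read 5′ to 3′ on the strand of the gene, with matches of either strand to the motifs below in capitals. *nop4* (chrII:2716704-2716853, + strand) and *nop52* (chrII:1824403-1824552, + strand) had the lowest fold changes in glucose-starved cells. *utp16* (chrII:3651821-3651970, - strand) was the one member called higher there. *rrp1402* (chrII:661439-661588, - strand) held ACCCTACC and *nop56* (chrII:942374-942523, - strand) held ACCCTA. *nop9* and *rrp17*, not shown, also held ACCCTA in their 150 bases. *rpl8* (chrII:2045325-2045474, + strand), the ribosomal protein gene with the highest mean CPM among those with a HomolD box in this stretch, is given for contrast.
nop4: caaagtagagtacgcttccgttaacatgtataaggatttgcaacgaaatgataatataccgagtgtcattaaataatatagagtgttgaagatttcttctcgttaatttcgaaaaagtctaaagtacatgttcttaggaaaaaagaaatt
nop52: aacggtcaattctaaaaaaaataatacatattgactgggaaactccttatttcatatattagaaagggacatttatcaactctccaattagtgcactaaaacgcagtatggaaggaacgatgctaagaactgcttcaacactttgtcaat
utp16: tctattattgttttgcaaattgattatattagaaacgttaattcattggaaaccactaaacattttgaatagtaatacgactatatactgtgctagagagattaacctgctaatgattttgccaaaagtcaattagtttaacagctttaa
rrp1402: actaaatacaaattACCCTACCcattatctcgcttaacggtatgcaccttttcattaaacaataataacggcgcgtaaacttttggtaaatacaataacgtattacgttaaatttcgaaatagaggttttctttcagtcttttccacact
nop56: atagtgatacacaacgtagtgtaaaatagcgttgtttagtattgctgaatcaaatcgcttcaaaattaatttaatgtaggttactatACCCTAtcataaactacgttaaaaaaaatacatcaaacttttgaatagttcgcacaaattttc
rpl8: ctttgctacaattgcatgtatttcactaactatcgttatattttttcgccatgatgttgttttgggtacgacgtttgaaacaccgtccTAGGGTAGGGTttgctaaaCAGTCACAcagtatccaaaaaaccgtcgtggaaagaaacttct

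In *rpl8* the HomolD box began 43 bases before the gene start, and 2 overlapping ACCCTA units stood on the other strand just upstream of it. Over the window of 250 bases before to 50 bases after the gene start, searched on both strands, CAGTCACA was found in 0 of 58 members, in 86 of 136 cytoplasmic ribosomal protein genes (63.2%) and in 137 of 5112 protein-coding genes with a full window (2.68%). ACCCTACC was found in 1 member (1.72%), against 30.1% of ribosomal protein genes and 1.62% of all. Its shorter unit ACCCTA, which overlaps it, was found in 6 members (10.3%), against 49.3% of ribosomal protein genes and 7.98% of all. In *S. cerevisiae*, ribosome biogenesis genes are known for the PAC (GCGATGAG) and RRPE (AAAATTTT) elements. PAC letters were in 0 of 58 members and 0.196% of all genes, and RRPE letters were in 7 members (12.1%), against 7.81% of all. These are matches of letters in a fixed window and not binding sites.

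Transcripts of the 58 genes made up a smaller share of the protein-coding counts in the media with glycerol and little or no glucose. The share was 0.238% and 0.322% in glucose-starved cells, 0.597% and 0.363% in glucose-deficient cells and 0.777% and 0.757% in sucrose, against 0.858% and 0.787% in glucose. The values in glucose-starved and glucose-deficient cells all lay under those of glucose and sucrose. The 2 glucose-deficient libraries stood far apart, the higher one from unstranded batch A and the lower one from batch C. In the libraries labelled *scr1*-, the share was between 0.583% and 0.635% in glucose and between 0.557% and 0.63% in sucrose.

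**Figure D1:**
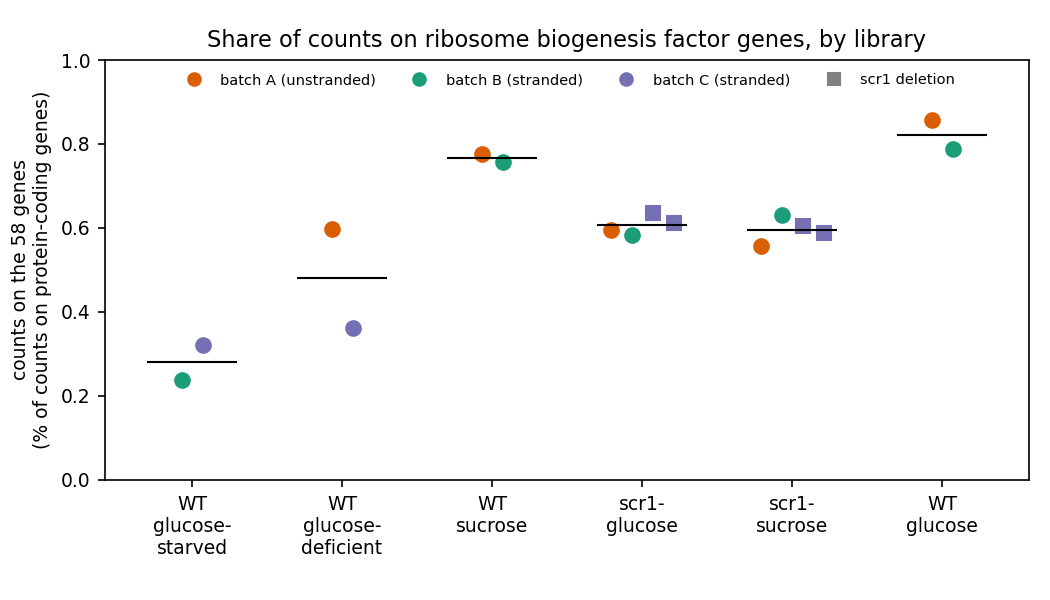
Counts on the 58 genes as a percentage of all counts on protein-coding genes (vertical axis), 1 point per library, coloured by batch, with squares for the *scr1* deletion and horizontal lines for group means. Glucose-starved libraries lie at 0.238% and 0.322% and wild type glucose libraries at 0.858% and 0.787%.

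Levels per kilobase of transcript spanned a wide range. In glucose the lowest member was *rrp2* at 7.46 ± 3.3 CPM per kb and the highest was *nop10*, the small box H/ACA protein, at 691 ± 188 CPM per kb (SD, n = 2 each). The next 3 were the box C/D protein gene *nop58* at 273 ± 32.4, the pre-60S GTPase gene *nog1* at 231 ± 18.1 and the box C/D protein gene *nop56* at 229 ± 8.55 CPM per kb, and these 3 do not separate clearly from each other given their spread. The median member stood at 44.8 CPM per kb in glucose. In glucose-starved cells the median was 16.9 CPM per kb, and the same 4 genes led, with *nop10* at 375 ± 163, *nog1* at 171 ± 33.3, *nop58* at 120 ± 68.3 and *nop56* at 101 ± 62.2 CPM per kb, although *utp16* at 97.7 ± 47.7 CPM per kb did not separate from *nop56*. Further down, the order of the genes shifted: *utp16* held rank 5 in glucose-starved cells and rank 42 in glucose, whereas *nop52* held rank 43 in glucose-starved cells and rank 8 in glucose. The median was 26.4 CPM per kb in glucose-deficient cells, 42.8 in sucrose, 39.2 in the libraries labelled *scr1*- in glucose and 37.6 in those in sucrose.

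Genes were called when edgeR's quasi-likelihood test gave an adjusted p below 0.05 over all 6691 features tested and the log2 fold change was larger than 1 in size. In glucose-starved cells 40 of 58 members were called lower than in glucose, against 21.2% of all protein-coding genes, and 1 was called higher, against 17.9%. The median log2 fold change of the members was -1.46, against -0.10 for protein-coding genes and -0.02 for all features. In 50 members both glucose-starved libraries lay under both glucose libraries, which held for 38.9% of protein-coding genes. Within batch B, 2815 of 5134 protein-coding genes were lower in glucose-starved cells, with a median log2 difference of -0.14. Of the members, 54 of 58 were lower there, with a median of -1.80. Without glucose-starved replicate 1 the number called lower was 28, and without replicate 2 it was 47, and with wild type libraries only it was 26. In bulk samples, fewer cells that transcribe these genes and less RNA of them per cell cannot be told apart.

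The 4 lowest fold changes were those of large-subunit factors, a class with a median of -1.62. *nop4* (SPBC4F6.14, chromosome II, 2716857 to 2719120, ASM294v2), which encodes a nucleolar RNA-binding protein, had 7.1 and 17 CPM in glucose-starved cells, against 120 and 84.3 CPM in glucose. Its log2 fold change was -3.13 (SE 0.33, edgeR adjusted p = 8.75e-06). *nop52* (SPBC9B6.07, chromosome II, 1824518 to 1825623), named for a human nucleolar protein, had 7.04 and 9.2 CPM, against 54.7 and 65.9 CPM, a log2 fold change of -2.97 with an SE of 0.25 and an edgeR adjusted p of 2.18e-06. *nop12* (SPAC16E8.06c, chromosome I, 3508514 to 3510077), another RNA-binding protein gene, had 12.1 and 15 CPM in glucose-starved cells, against 77 and 97.6 CPM in glucose. The rRNA methyltransferase gene *rrp8* (SPAC56F8.09, chromosome I, 1140580 to 1142002) had 11.5 and 10.7 CPM, against 59.1 and 75.4 CPM. Their log2 fold changes were -2.68 (SE 0.33) and -2.61 (SE 0.24). In all 4 genes both glucose-starved libraries lay far under both glucose libraries. In the class, 12 of 17 genes were called lower, against 21.2% of protein-coding genes. *nog1* had 327 and 431 CPM in glucose-starved cells, against 483 and 540 CPM in glucose, and its log2 fold change of -0.54 (edgeR adjusted p = 0.0412) did not reach the fold minimum. The exonuclease gene *rrp17* had 54.8 and 79.3 CPM in glucose-starved cells, against 48.7 and 59.6 CPM in glucose, and these overlapped.

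**Figure D2:**
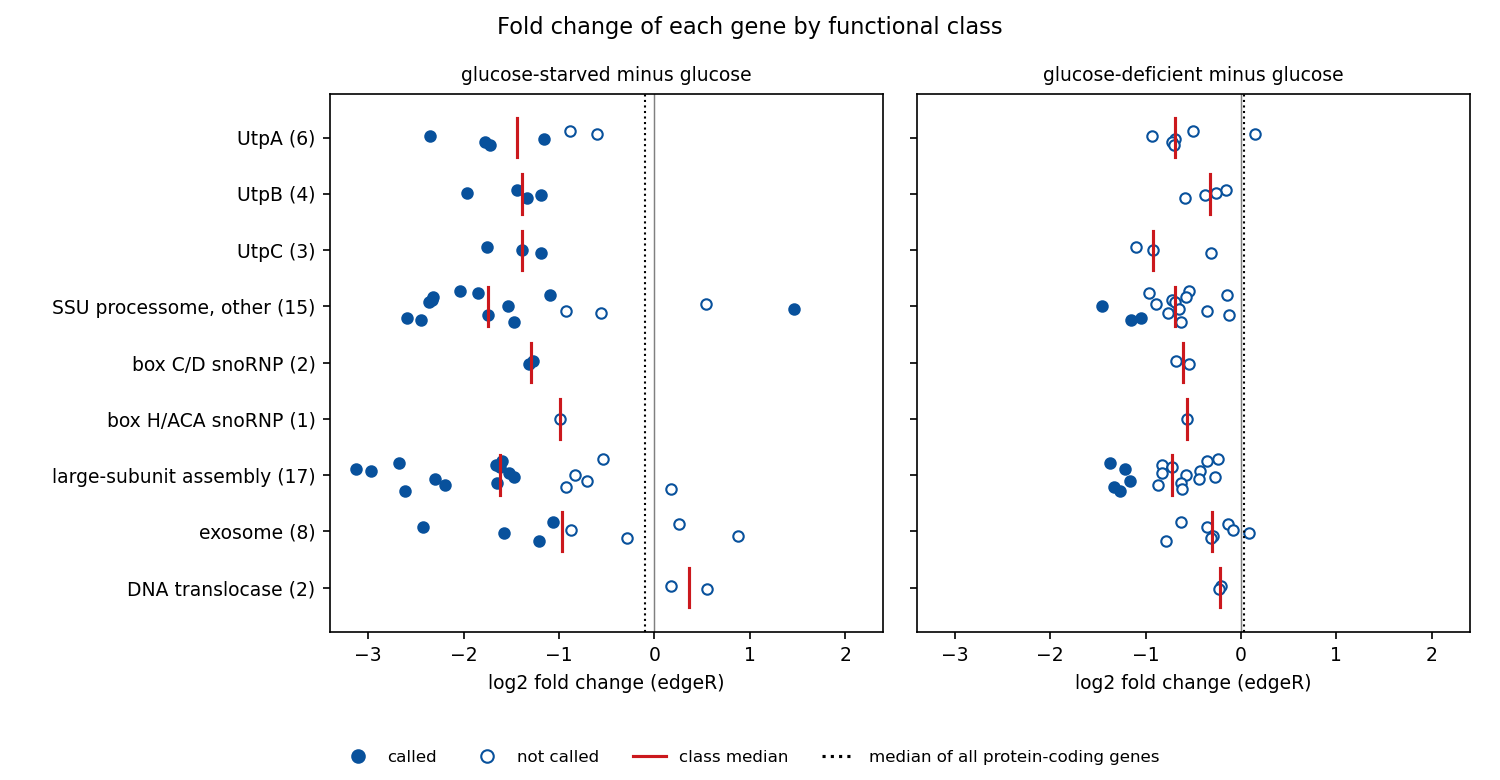
Log2 fold change of each gene (horizontal axes) in glucose-starved cells (left) and glucose-deficient cells (right) against glucose, by class with the number of genes, filled where called. Red bars are class medians and the dotted lines the medians of all protein-coding genes, -0.10 and 0.03, and most points lie to the left of them in both panels.

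Most SSU processome genes were lower as well. Among the members, all 4 of UtpB, all 3 of UtpC, 4 of 6 of UtpA and 11 of the other 15 were called lower in glucose-starved cells. Of all protein-coding genes 21.2% were. The class medians of the members were -1.39, -1.39, -1.44 and -1.74. The highest member per kilobase of UtpB was *utp6*, with 23.7 and 50.3 CPM in glucose-starved cells, against 88.5 and 92.2 CPM in glucose (log2 fold change -1.34, edgeR adjusted p = 0.00441). For UtpA it was *utp15*, with 90.7 and 131 CPM, against 141 and 157 CPM, and its log2 fold change of -0.60 (edgeR adjusted p = 0.0194) stayed under the fold minimum. For UtpC it was *rrp7*, with 13.7 and 22.3 CPM in glucose-starved cells, against 39.9 and 47.7 CPM in glucose (log2 fold change -1.39). The whole of *rrp7* is overlapped on the opposite strand by *pmh1*, which encodes a subunit of the transcription factor TFIIK, so that batch A counts both. Among the box C/D proteins, *nop58* had 141 and 330 CPM in glucose-starved cells, against 490 and 580 CPM in glucose (log2 fold change -1.31, SE 0.32). *nop10* had 97.2 and 183 CPM, against 209 and 308 CPM, and its log2 fold change of -0.99 (SE 0.36) lay just short of the fold minimum. Without glucose-starved replicate 1 the log2 fold changes of *utp6*, *rrp7* and *nop58* were -0.68, -0.95 and -0.67 and not called, and with wild type libraries only these 3 were not called either. Without glucose-starved replicate 2 *nop10* was called at -1.82.

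*utp24*, which encodes the endonuclease that cuts the precursor RNA in the SSU processome, differed between unstranded and stranded libraries. Its 12.5 and 35.2 CPM in glucose-starved cells compare with 77 CPM in the stranded and 279 CPM in the unstranded glucose library. Across the other groups it stood at 285 to 304 CPM in every unstranded library and at 64.3 to 92.2 CPM in every stranded one. The gene *bem46* covers 46.9% of it on the opposite strand. Within stranded batch B its log2 difference between glucose-starved and glucose cells was -2.62, against -1.74 from the fit over all batches, and without glucose-starved replicate 1 the fitted value was -1.0 and not called. In all, 31 members had some overlap on the opposite strand, 18 of them over at least 20% of their length. Of the 27 without any, 22 were called lower and 0 higher in glucose-starved cells, against 21.2% and 17.9% of protein-coding genes. This subset was chosen after the data were seen.

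A few members were called higher in glucose-starved cells in at least 1 comparison. *utp16* (SPBP8B7.10c, chromosome II, 3650361 to 3651820), a U3-associated protein gene, had 80 and 164 CPM in glucose-starved and 31.5 and 20.4 CPM in glucose-deficient cells, against 39 and 48.6 CPM in glucose. Its log2 fold change was 1.46 (SE 0.36, edgeR adjusted p = 0.00369) against glucose and 2.11 (SE 0.36, edgeR adjusted p = 0.00038) against glucose-deficient cells. The higher glucose-starved library was that of batch C. Within batch B the log2 difference from glucose was 0.72, without glucose-starved replicate 2 the fitted value was 0.64 and not called, and with wild type libraries only the edgeR adjusted p was 0.0586. The non-coding transcript SPNCRNA.575 covers 90.2% of *utp16* on the opposite strand. In stranded libraries it had 0.469 and 0.351 CPM in glucose-starved cells, against 0.746 CPM in glucose. Its 39 CPM in the unstranded glucose library equalled the value of *utp16* there, where reads of either strand count for both, and is no measure of the non-coding transcript alone. *utp11* (SPAC18G6.06, chromosome I, 2228922 to 2230058) had 54.2 and 105 CPM in glucose-starved cells, 34.9 and 22 CPM in glucose-deficient cells and 52.7 and 60.7 CPM in glucose. It was called higher in glucose-starved than in glucose-deficient cells (log2 fold change 1.43, edgeR adjusted p = 0.0033), whereas glucose-starved and glucose libraries overlapped. Leaving out either glucose-starved replicate 2 or glucose-deficient replicate 2 ended this call, with log2 fold changes of 0.54 and 1.0.

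The exosome is built from a ring of 6 subunits, to which cap subunits and the nuclease Rrp6 are attached, and its genes did not move as one. *rrp41* (SPAC3G9.10c, chromosome I, 3163136 to 3164354), a ring subunit, had 3.95 and 9.64 CPM in glucose-starved cells, against 33.8 and 34.2 CPM in glucose, a log2 fold change of -2.43 with an SE of 0.33 and an edgeR adjusted p of 5.3e-05. *rrp45* (SPCC757.08, chromosome III, 62686 to 64464), also of the ring, had 81.1 and 82.2 CPM, against 42.7 and 47.3 CPM. Both glucose-starved libraries were above both glucose libraries, and the log2 fold change of 0.88 with an SE of 0.18 and an edgeR adjusted p of 0.00118 was under the fold minimum, whereas against glucose-deficient cells, with 35.3 and 29.8 CPM, it was called at 1.17 (edgeR adjusted p = 0.000189). Without glucose-starved replicate 2 the value against glucose-deficient cells was 0.91 and under the minimum. The ring gene *rrp43* (SPBC17D1.03c, chromosome II, 3331682 to 3333060) had the highest level per kilobase of the class, with 33.5 and 25.9 CPM in glucose-starved and 75.9 and 90.9 CPM in glucose-deficient cells, against 76.9 and 85.2 CPM in glucose. It was lower in glucose-starved cells than in glucose (log2 fold change -1.58, SE 0.13, edgeR adjusted p = 1.89e-06) and than in glucose-deficient cells (log2 fold change -1.66). *rrp42* and *rrp46*, also of the ring, had log2 fold changes of -0.87 (edgeR adjusted p = 0.0237) and -0.29 (edgeR adjusted p = 0.164). The gene *bag101* covers 63.8% of *rrp42* on the opposite strand, and *rrp42* had 104 CPM in the unstranded and 57.2 CPM in the stranded glucose library. Within stranded batch B its log2 difference was -1.34. It was called at -1.27 with library totals as the only scaling and at -1.23 with no batch term, but not with DESeq2, at -0.74. Of the cap genes, *rrp4* was called lower, with 26.7 and 35.8 CPM in glucose-starved cells, against 51.6 and 69.1 CPM in glucose (log2 fold change -1.06), and *rrp40* had 42.9 and 77.2 CPM, against 53.8 and 47.6 CPM, and overlapped. *rrp6* was called lower, with 26.8 and 44.9 CPM, against 70.2 and 74 CPM (log2 fold change -1.21). Both calls were near the fold minimum, and with wild type libraries only the log2 fold changes were -0.86 for *rrp4* and -0.83 for *rrp6* and neither was called. *rrp4* was also under the fold minimum without glucose-starved replicate 1 (-0.67), with no batch term (-0.95) and with DESeq2 (-0.94). Altogether 4 of the 8 were called lower and 0 higher, against 21.2% and 17.9% of protein-coding genes. Without the fold minimum, 5 had an edgeR adjusted p below 0.05 on the lower side and 1 on the higher. For protein-coding genes these were 1838 and 1572 of 5134. Of 7 other exosome genes, 2 (28.6%) were called lower, near the share of all protein-coding genes, and the median log2 fold change of the 7 was -0.81.

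Neither of the 2 DNA translocase genes was called. *rrp1* had 49.4 and 44.6 CPM in glucose-starved cells, against 44.5 and 36.6 CPM in glucose (log2 fold change 0.17, edgeR adjusted p = 0.478). *rrp2* had 32.8 and 41.8 CPM in glucose-starved cells, against 46.8 and 24.5 CPM in glucose. Its fitted log2 fold change of 0.55 (edgeR adjusted p = 0.0254) takes account of the batches. *nta1*, which covers 92.1% of *rrp2* on the opposite strand, had 304 and 301 CPM in glucose-starved cells, against 46.8 and 20.7 CPM in glucose. Both glucose-starved libraries were stranded, so that these *nta1* reads were not counted on *rrp2* there. In the unstranded glucose library, where reads of either strand count for both, the 2 genes had the same 46.8 CPM. The part of *nta1* in the fitted *rrp2* value was not tested.

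**Figure D3:**
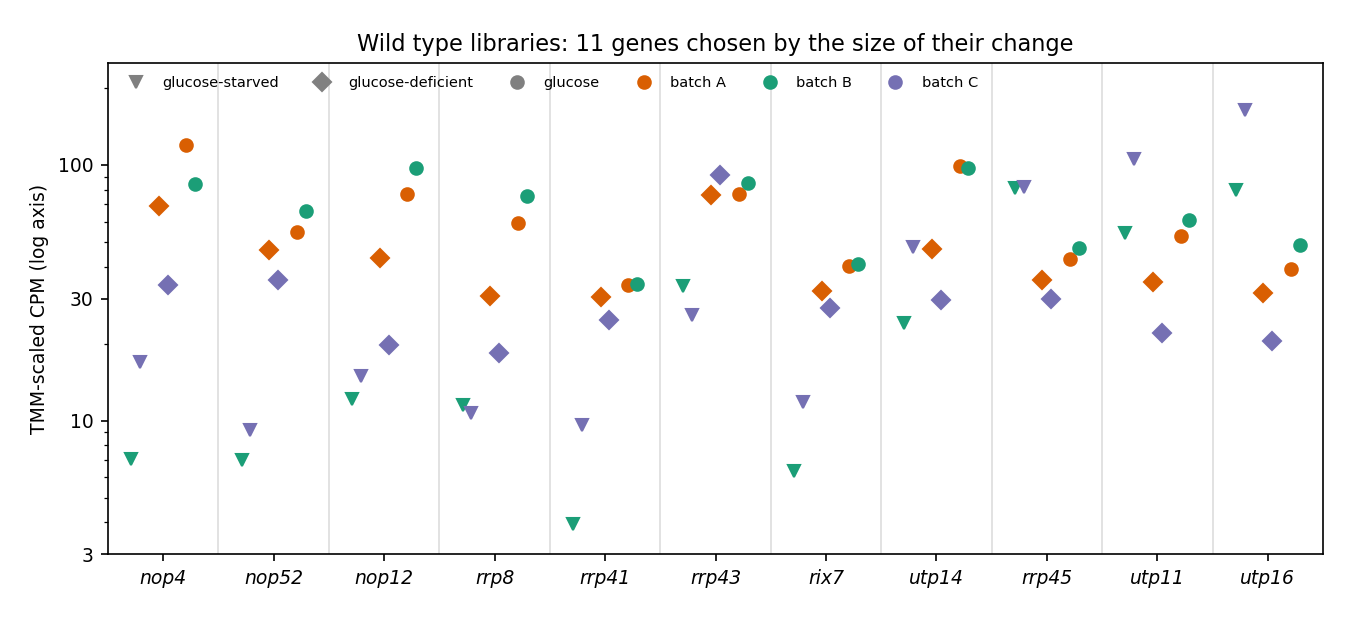
TMM-scaled CPM (log axis) of 11 genes in the 6 wild type libraries from glucose-starved (triangles), glucose-deficient (diamonds) and glucose (circles) medium, coloured by batch. *nop4* and *nop52* drop to between 7.04 and 17 CPM in glucose-starved cells, and *rrp45* stands at 81.1 and 82.2 CPM there.

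With 0.1% glucose left in the medium, fewer members were called. In glucose-deficient cells 8 of 58 members were called lower than in glucose, against 2.49% of protein-coding genes, and 0 were called higher, against 4.21%. The edgeR test gave an unadjusted p below 0.05 for 29 members, against 1832 of 5134 protein-coding genes. DESeq2 called 9 members lower and 0 higher. The members' median log2 fold change was -0.62, against 0.03 for protein-coding genes, and 56 of 58 lay below 0. In 46 members both glucose-deficient libraries lay under both glucose libraries, which held for 23% of protein-coding genes. The number called rested on single libraries: it was 1 without glucose-deficient replicate 2, 32 without replicate 1, 2 without glucose replicate 1 and 4 without glucose replicate 2. With wild type libraries only it was 0. The median of the members was -0.32 without glucose-deficient replicate 2 and -1.11 without replicate 1.

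The 8 genes were *utp14*, *nop12*, *rrp16*, *rrp8*, *nop4*, *rrp14*, *utp3* and *utp25*, of which 5 are large-subunit factors and 3 belong to the SSU processome. *utp14* (SPAC57A7.06, chromosome I, 1531138 to 1534330), which encodes an activator of the helicase that dismantles the processome, had 46.7 and 29.7 CPM in glucose-deficient cells, against 99.2 and 97.2 CPM in glucose (log2 fold change -1.46, SE 0.26, edgeR adjusted p = 0.00439). *nop12* had 43.1 and 19.8 CPM, against 77 and 97.6 CPM (log2 fold change -1.37). *rrp16* (SPAC22F8.09, chromosome I, 4803032 to 4804584) had 50.5 and 27.9 CPM, against 91.4 and 106 CPM (log2 fold change -1.33). *rrp8* had 30.8 and 18.4 CPM, against 59.1 and 75.4 CPM (log2 fold change -1.27). In each gene the batch C library was the lower of the pair, and both lay under the glucose libraries. Within batch A, which holds 1 library of each medium, 2505 of 5134 protein-coding genes had a log2 difference below 0, with a median of 0.01. The differences there were -1.08 for *utp14*, -0.84 for *nop12*, -0.85 for *rrp16* and -0.94 for *rrp8*. Of the members, 54 of 58 lay below 0 with a median of -0.36. At the other end, *utp15* had 160 and 177 CPM in glucose-deficient cells, against 141 and 157 CPM in glucose, with a log2 fold change of 0.15 (edgeR adjusted p = 0.618).

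Set directly against glucose-deficient cells, glucose-starved cells had 23 members called lower, against 18.5% of protein-coding genes, and 3 called higher, against 15%. This comparison shares its libraries with both of those above. *nop52* had 46.5 and 35.4 CPM in glucose-deficient cells and a log2 fold change of -2.55 with an SE of 0.25 and an edgeR adjusted p of 7.95e-06. *rrp41* had 30.3 and 24.7 CPM there and a log2 fold change of -2.08, and *nop4* had 68.8 and 34 CPM there and a log2 fold change of -1.91. The AAA ATPase gene *rix7* (SPBC16E9.10c, chromosome II, 1931810 to 1934522), which acts in release of the large subunit, had 6.37 and 11.8 CPM in glucose-starved cells, against 32.1 and 27.6 CPM in glucose-deficient cells (log2 fold change -1.87). *utp14*, *nop10* and *nog1* overlapped between these media. Within batch C, with 1 library of each, 2700 of 5134 protein-coding genes were lower in glucose-starved cells, with a median log2 difference of -0.06. There 35 of 58 members were lower, with a median of -0.24, against 47 of 58 and -0.82 from the fit. The fitted median was -0.77 with no batch term, -0.45 and -1.16 without glucose-deficient replicate 1 and 2, and -0.49 and -1.41 without glucose-starved replicate 1 and 2. For *nop52*, *rrp41*, *nop4* and *rix7* the batch C differences were -1.93, -1.35, -1.0 and -1.21, and for *utp16*, *utp11* and *rrp45* they were 3.00, 2.25 and 1.46. Leaving out glucose-starved replicate 1 gave 14 called lower and leaving out replicate 2 gave 36, while leaving out glucose-deficient replicate 1 gave 15 and replicate 2 gave 35.

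In cells moved to sucrose no change was detected for these genes. Sucrose was called different from glucose for 0 of 58 members, against 0.0195% of protein-coding genes. The edgeR test gave an unadjusted p below 0.05 for 0 members, against 84 of 5134 protein-coding genes, and DESeq2 also called 0 members. Log2 fold changes lay between -0.23 and 0.18, with a median of -0.06. *utp14*, at the low end, had 80.3 and 86.3 CPM in sucrose, against 99.2 and 97.2 CPM in glucose.

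In the libraries labelled *scr1*- most of the genes had slightly lower levels, and none was called. In glucose 0 of 58 members were called in the libraries labelled *scr1*-, against 1.31% of protein-coding genes, and in sucrose 0 of 58, against 1.05%. The edgeR test gave an unadjusted p below 0.05 for 9 members in glucose and 7 in sucrose, against 763 and 824 of 5134 protein-coding genes. DESeq2 called 0 members in both. The median log2 fold change was -0.22 in glucose, with 54 of 58 below 0, and -0.21 in sucrose, with 51 of 58 below 0, while the median of protein-coding genes was 0.01 in both. All 4 libraries labelled *scr1*- lay under both wild type libraries for 18 members in glucose and 12 in sucrose, which held for 7.03% and 6.95% of protein-coding genes. Within batch A the median log2 difference of the members was -0.34 in glucose and -0.37 in sucrose, and within batch B it was -0.09 in both, with 38 and 34 of 58 members below 0. For protein-coding genes the medians were 0.04 and 0.02 within batch A and 0.01 and 0.03 within batch B. In batch B 2493 and 2380 of 5134 protein-coding genes lay below 0. Batch C holds no wild type library in these media, and the *scr1*::*ura4*+ strain also carried marker alleles, so that *scr1* and those alleles cannot be told apart within batches A and B.

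The lowest values were those of *utp14* and *utp3*, 2 SSU processome genes chosen for description after their values were seen. *utp14* had 53.2, 49.5, 56.7 and 61 CPM in the libraries labelled *scr1*- in glucose, against 99.2 and 97.2 CPM in wild type. Its log2 fold change was -0.92 (SE 0.22, edgeR adjusted p = 0.0542), and the within-batch differences were -0.90 in A and -0.97 in B. *utp3* (SPBC3B8.09, chromosome II, 3375459 to 3377375) had 75.8, 66.9, 81.2 and 83.9 CPM, against 140 and 120 CPM (log2 fold change -0.78, SE 0.19, edgeR adjusted p = 0.0546). The DESeq2 adjusted p was 0.00998 for *utp14* and 0.00921 for *utp3*, with log2 fold changes of -0.91 and -0.78 that were under the minimum. Leaving out either one of the glucose-deficient libraries, which enter this comparison only through the shared scaling, spread and batch estimates, gave *utp14* a called log2 fold change of -1.04. In sucrose *utp14* had 47.8, 55.4, 56.3 and 56.4 CPM in the libraries labelled *scr1*-, against 80.3 and 86.3 CPM in wild type, and *utp3* had 67, 74.3, 81.2 and 72 CPM, against 112 and 115 CPM. In each medium the groups did not overlap for either gene. The difference between the *scr1*- effects in sucrose and in glucose was called for 0 of 58 members, against 0.0195% of protein-coding genes. Its unadjusted edgeR p was below 0.05 for 0 members, against 20 of 5134 protein-coding genes, and DESeq2 called 0 members.

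Genes with other names but the same kind of role were counted alongside. Of 94 symbols of further ribosome biogenesis genes 81 were found. Of all protein-coding genes, 21.2% were called lower and 17.9% higher in glucose-starved cells, and 2.49% and 4.21% in glucose-deficient cells. In glucose-starved cells 59 of the 81 were called lower than in glucose and 0 higher, with a median log2 fold change of -1.53, and in glucose-deficient cells 11 were called lower and 0 higher, with a median of -0.63. The libraries labelled *scr1*- had medians of -0.24 in glucose and -0.22 in sucrose over these genes. The 136 cytoplasmic ribosomal protein genes had 76 called lower and 0 higher in glucose-starved cells, with a median of -1.14, but in glucose-deficient cells 0 were called and the median was 0.04, with 63 of 136 below 0. Many ribosomal protein genes have near-identical copies, and reads that matched several places were counted at each. In the libraries labelled *scr1*- their medians were 0.20 in glucose and 0.10 in sucrose, which turned to -0.04 and -0.09 when library totals were the only scaling. That scaling moved the median of all protein-coding genes to -0.21 and -0.18 there and gave the ribosomal protein genes a median of -0.23 in glucose-deficient cells, where all protein-coding genes had -0.24. Under either scaling the medians of the 58 and of the 81 biogenesis genes lay under that of all protein-coding genes, and those of the ribosomal protein genes in the libraries labelled *scr1*- lay above it. These are counts and medians side by side, and no test between the lists was run.

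**Figure D4:**
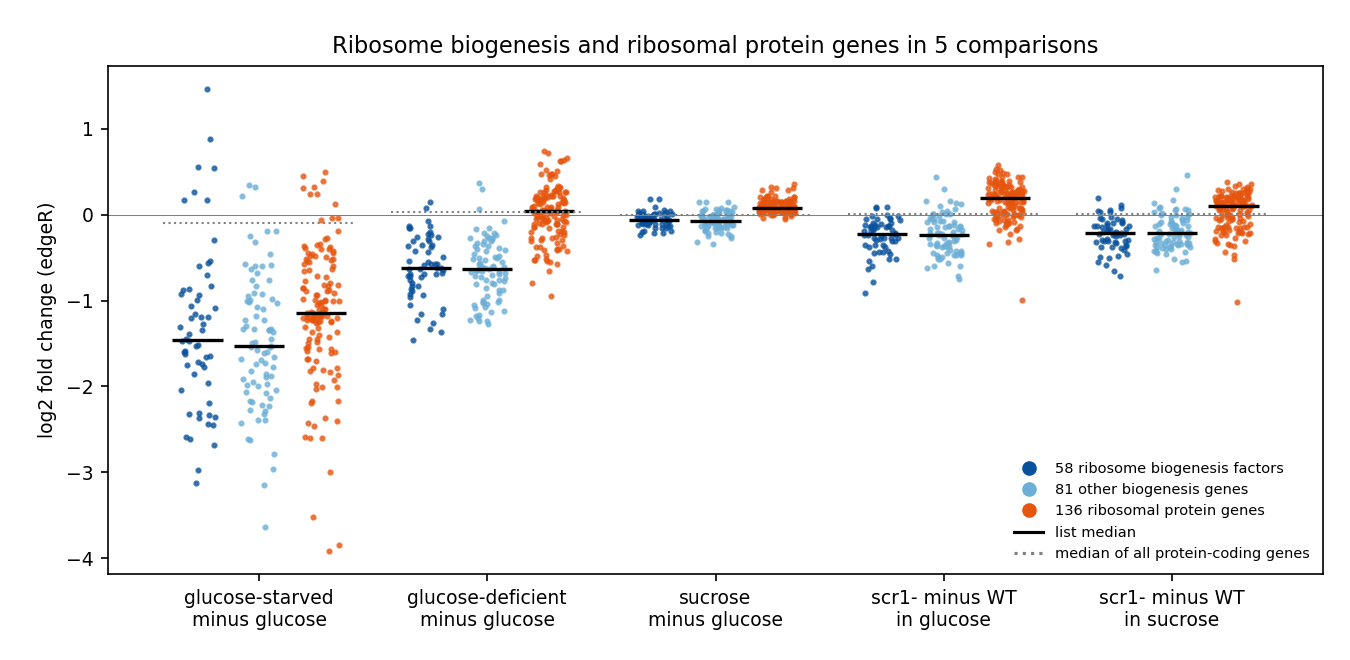
Log2 fold change (vertical axis) of each of the 58 genes, of 81 other biogenesis genes and of 136 ribosomal protein genes in 5 comparisons, with list medians as black bars and the median of all protein-coding genes dotted. In glucose-deficient cells the medians are -0.62 (-0.32 or -1.11 without one or the other glucose-deficient library), -0.63 and 0.04 (-0.23 with library totals as the only scaling), whereas in glucose-starved cells all 3 are at or below -1.14.

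The 17 members whose names could be read in the study's shortened tables and the 41 named only by the reference were also described apart. Because those tables were sorted by fold change before they were shortened, this split depends on the values themselves and the counts are a description. In glucose-starved cells 8 of the 17 and 32 of the 41 were called lower, with medians of -0.99 and -1.53, and in glucose-deficient cells 5 of the 17 and 3 of the 41, with medians of -0.76 and -0.58. Over the 48 genes left without the exosome and DNA translocase classes, 36 were called lower in glucose-starved cells and 8 in glucose-deficient cells. Over all protein-coding genes the shares called lower in these media were 21.2% and 2.49%.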

How the data were processed

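The authors deposited a table of raw read counts per gene for the 16 libraries. Per the methods and the submitters' processing notes, reads were demultiplexed with CASAVA 1.8.4, trimmed with cutadapt 1.9.1, aligned with TopHat2 2.1.1 to ASM294v2 and counted with featureCounts 1.5.2. Reads that matched several places or overlapping features were counted at each, and batch A was counted without strand. The authors used DESeq2 1.12.3.

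Here edgeR 4.0.16 (R 4.3.3) was run on the counts after filterByExpr with a minimum count of 10, which kept 6691 of 7019 features, with TMM scaling, 6 groups and batch as terms and 8 residual degrees of freedom. Benjamini-Hochberg adjustment ran over all features tested. Calls needed an adjusted p below 0.05 and an absolute log2 fold change above 1. Within-batch log2 differences came from CPM with a prior count of 2. The batch term was below an adjusted p of 0.05 for 3693 of 6691 features and 8 of 58 members. The methods describe the replicates as independent cultures. The fit was also run on counts simulated with a common spread and no batch differences. Such counts cannot show how batches or single libraries affect the calls. DESeq2 1.42.0, other scalings and filters, other sample sets and leaving out each library were alternatives.

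Genes named in the text are the up to 4 members with the largest called changes in each direction and comparison, the member with the highest level per kilobase over all groups in each class, the exosome members and *rrp1* and *rrp2*, 26 in all, and any other was chosen after its values were seen. The members, classes and gene lists were chosen with earlier results of these data known. Gene coordinates are those of the count table (ASM294v2), and upstream sequences were read from RefSeq ASM294v3 at RefSeq gene starts, which differ from the count table's for some genes. All 58 members were matched.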

Additional observations from a re-analysis of the deposited data

Results flagged for a closer look

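In 8 of 54 sets of the 4 libraries labelled *scr1*- in one medium, 1 library stood far from the other 3 for a named gene, and chance gives about 1 in 20 where all 4 libraries are alike. Here they were not alike, since each set held 2 deletion libraries of batch C and 1 *scr1*::*ura4*+ library each of batches A and B, so that chance value does not apply. All 8 were *scr1*::*ura4*+ libraries, and within these sets strain and batch cannot be told apart. From unstranded batch A (replicate 1), *utp24* had 285 CPM in glucose, against 73.9 to 78.1 CPM in the others, and 292 CPM in sucrose, against 73.1 to 81.6 CPM. Wild type *utp24* stood at 279 CPM in glucose and 296 CPM in sucrose in batch A, against 77 and 92.2 CPM in batch B. In the *scr1*::*ura4*+ libraries of batch A *rrp7* had 30.4 CPM in glucose, against 41.0 to 42.3 CPM, and *utp14* had 47.8 CPM in sucrose, against 55.4 to 56.4 CPM. From batch B (replicate 2), *utp11* had 55.3 CPM in glucose, against 43.3 to 44 CPM, and 57.4 CPM in sucrose, against 36.9 to 38.3 CPM. In that batch *rrp45* had 48.5 CPM in glucose, against 34.9 to 35.3 CPM, and *rrp40* had 58.6 CPM in sucrose, against 44.6 to 46.3 CPM.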

How the results depend on the processing

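For 33 single-gene results 920 values under alternatives were computed, of which 853 kept their side of the thresholds, 44 lost a call, 23 gained one and 0 reversed direction. With wild type libraries only, members called lower were 26 against glucose and 14 against glucose-deficient cells in glucose-starved cells, and 0 in glucose-deficient cells. With stranded libraries only they were 15 lower and 6 higher in glucose-starved against glucose-deficient cells, and 15 lower in glucose-deficient cells. With library totals as the only scaling the median of protein-coding genes was -0.46 in glucose-starved and -0.24 in glucose-deficient cells, and -0.21 and -0.18 in the libraries labelled *scr1*- in glucose and sucrose. The members' medians were then -1.85, -0.89, -0.45 and -0.40. That scaling gave 17 called lower in glucose-deficient cells and 2 called in glucose for *scr1*-. For glucose-deficient cells 5 were lower with no batch term, 16 with no fold minimum, 2 among members without opposite-strand overlap, and 0 or 4 with *scr1*::*ura4*+ or deletion libraries as the only mutants. Members higher in glucose-starved than in glucose cells were 2 with *scr1*::*ura4*+ as the only mutant, 3 with no fold minimum and 0 without opposite-strand overlap. Against glucose-deficient cells they were 5 with no fold minimum and 0 without such overlap. The choices of *scr1* strain and of overlap were made after seeing the data.

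Leaving out 1 library at a time gave 28 to 47 lower and 0 to 3 higher against glucose in glucose-starved cells, 14 to 36 lower and 1 to 6 higher against glucose-deficient cells, 1 to 32 lower in glucose-deficient cells and 0 to 1 called for *scr1*- in glucose. The cause was not tested. With a replicate block in place of the batch term 40, 22 and 6 members were lower in glucose-starved against glucose, glucose-starved against glucose-deficient and glucose-deficient against glucose cells, and with both terms 40, 21 and 8. Replicate numbers largely follow batches: deviations of same-numbered libraries correlated at 0.969 between glucose and sucrose, which share batches, and at -0.0185 between glucose and the deletion in glucose, which do not. Counts of sucrose against glucose, of *scr1*- in sucrose and of the difference between *scr1*- effects stayed at 0 under all alternatives. With stranded libraries only the median of the members in glucose-deficient cells was -0.97.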
